A study of Mus musculus with 20 samples.

Results

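Normal skin (NS) samples of hairless mice were examined in 2 sets of 4. The first set, called NS 1-5 here, held the samples numbered 1, 2, 4 and 5 in their labels, and the second, NS 6-9, held those numbered 6, 7, 8 and 9. They were 8 of the 20 samples of the series, which also held 8 actinic keratosis (AK) and 4 cutaneous squamous cell carcinoma (cSCC) samples. The sets were chosen by their scores on a principal component of the expression values, so each gene's values were used in choosing them. All differences between the sets are therefore descriptions, without p-values, and the spread within a set is likely understated. The sets follow the order of the label numbers, and neither the numbers nor any other label says what set the samples apart. In NS 6-9 the chitinase-like genes Chil4 and Chil3, interferon-response genes such as Gbp2, Igtp and Iigp1, some mast cell and basophil genes and some genes of glycolysis were higher in every sample than in NS 1-5. Cyp2g1, the keratinocyte genes Skint5 and Skint6, some muscle genes and some hair follicle genes were lower in every sample. Keratinocyte stress genes were higher on average in NS 6-9, but NS 5 and NS 9 made the sets overlap, and fibroblast and fat genes cut across the sets.

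The mice were female SKH-1, a hairless strain that forms skin tumors under ultraviolet radiation (UVR), and were 7 months old at the start. By the study's methods, 4 mice were irradiated over 28 weeks, 4 were not, and the skin was taken after that time. Each unirradiated mouse gave 1 NS, and each irradiated mouse gave NS, AK and cSCC tissue. The labels do not say which NS came from irradiated mice, and neither set is assigned to an arm here. They do not tie tissues to mice either, so NS and AK of 1 mouse could not be paired, and the 8 AK stand for 4 mice. No label gives a transgene or a deletion. All were pieces of whole skin, in which fewer cells of a type and less RNA per cell cannot be told apart. Keratinocyte markers were high in all 8 NS, with Krt14, the keratin of the basal layer, between 3659.6 and 13137 CPM and Krt10, the keratin of the layers above it, between 899 and 2486 CPM.

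Skin holds a stratified epidermis with hair follicles and sebaceous glands, a dermis of fibroblasts, vessels and immune cells, and fat and a thin sheet of muscle below. Keratinocytes answer injury and inflammation by making stress keratins, small proline-rich proteins and S100 proteins. Interferons, which are released by immune cells and by keratinocytes, switch on guanylate-binding proteins, immunity-related GTPases, antigen-processing genes and chemokines through STAT factors.

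Levels are CPM, counts brought to a common library total with TMM scaling, and differences are of mean log2(CPM + 1), NS 6-9 minus NS 1-5, a scale that understates the change of low genes. Total counts ran from 2584219 to 4672951 in NS 1-5 and from 1624325 to 6295575 in NS 6-9, so depth did not separate the sets. The level of 3 counts, taken as a floor for counting error alone, was between 0.478 and 1.69 CPM. TMM factors were 1.07 to 1.22 in NS 1-5 and 0.990 to 1.09 in NS 6-9. No 2 NS libraries were alike within sampling noise (ratio of chi-square to degrees of freedom at least 11.6).

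On component 2 of the 20 samples, which held 16.8% of the variance, NS 1-5 scored between 44.4 and 70.6 and NS 6-9 between -7.73 and 29.7. The AK samples scored between -44.7 and 14.4, on the side of NS 6-9, and cSCC between -73.7 and 50.9. This component also orders NS against AK, so that the position of AK nearer NS 6-9 is in part fixed by how the sets were found. The gap between the sets on component 2, from the lowest of NS 1-5 to the highest of NS 6-9, was 14.7, fell to 3.28 without NS 1 and rose to 24.2 without NS 2. Among the first 8 components, only the second and the sixth kept the sets apart. In the components of the 8 NS alone, none of the 7 separated them. On the first of these, with 32.6% of the variance, NS 1, 2 and 9 lay at one end and NS 6, 7 and 8 at the other. The sets were thus not tight blocks. The median correlation of 2 samples was 0.890 within NS 1-5, 0.890 within NS 6-9 and 0.866 between the sets, and the highest between the sets, 0.920 for NS 1 with NS 9, was above both medians.

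**Figure D1:**
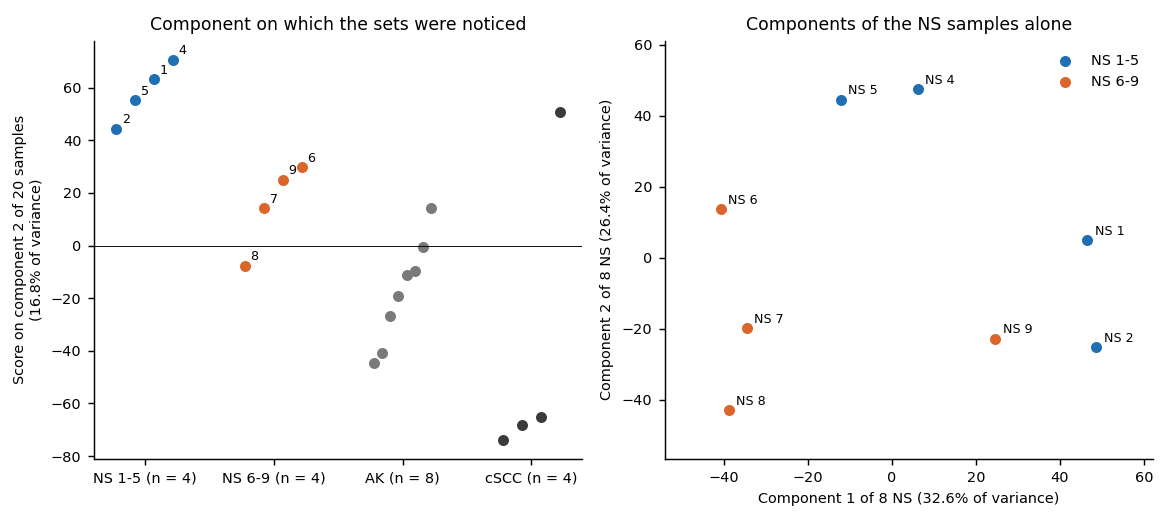
Scores of the samples on component 2 of all 20 samples (left, 1 point a sample, numbers are NS labels) and on components 1 and 2 of the 8 NS alone (right). The sets lie apart on the left by construction, while on the right NS 9 lies beside NS 2.

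Of 22090 genes, 10515 had a mean of at least 5 CPM over the 8 NS and were kept. A gene was called where the 4 and 4 samples did not overlap and the difference was at least 1.5-fold. By this rule 252 genes (2.4%) were higher in NS 6-9 and 231 (2.2%) were lower, 4.59% in either direction. With no minimum fold, 369 genes (3.51%) were higher and 312 (2.97%) lower without overlap. These shares describe the sets and, given how they were chosen, support nothing about them. The median difference over all kept genes was -0.01 and the median of the absolute differences was 0.28. Scaling by library size alone moved that median to -0.14 and the calls to 140 higher and 393 lower, so that 26.3% of calls were higher in place of 52.2%. DESeq2 size factors gave 219 higher and 269 lower, 44.9% higher. At the edge of the rule, Usp5 was just inside with a difference of -0.59 and Timm8a1 with 0.59, while Gpr115 with -0.58 and Atp6v0d1 with 0.58 fell just outside.

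The genes with the largest differences were the chitinase-like genes Chil4 and Chil3, secreted lectins of macrophages and of stimulated epithelium. They lie near each other on chromosome 3 (GRCm38, minus strand), Chil4 at chr3:106201490-106219507 and Chil3 at chr3:106147554-106167564. Their main transcripts, 1539 bases each, were 94.4% identical over 1538 aligned bases, so that reads could be split between them and their separate counts are uncertain. The bases before the start of each gene in the C57BL/6J reference (RefSeq, GRCm38.p6), not the SKH-1 genome, are shown because the pair had the largest difference between the sets. Capitals mark TTC and GAA with 3 bases between them, the core of a GAS element bound by STAT factors.
Chil4: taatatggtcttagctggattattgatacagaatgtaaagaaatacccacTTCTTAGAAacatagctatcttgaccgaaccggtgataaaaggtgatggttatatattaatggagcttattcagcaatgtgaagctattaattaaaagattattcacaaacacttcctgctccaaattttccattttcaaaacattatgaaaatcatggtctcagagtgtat
Chil3: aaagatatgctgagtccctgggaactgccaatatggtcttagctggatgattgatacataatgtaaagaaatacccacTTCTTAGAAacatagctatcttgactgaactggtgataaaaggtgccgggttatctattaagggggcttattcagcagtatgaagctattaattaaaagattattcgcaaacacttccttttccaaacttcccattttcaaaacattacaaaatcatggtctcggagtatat
The Chil4 bases are chr3:106219508-106219729, leaving out 28 bases that GENCODE M21 places within the gene, and the Chil3 bases are chr3:106167565-106167814. The same letters lay 200 to 192 bases before the RefSeq start of Chil4 and 172 to 164 before that of Chil3. Of all 32851 windows of 250 bases before a start, 7.02% hold such a match on either strand, so the match is a description and no site is shown by it.

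Chil4 was at 2.11, 5.79, 0.339 and 2.47 CPM in NS 1, 2, 4 and 5, on 12, 20, 1 and 11 counts. In NS 6, 7, 8 and 9 it was at 2609, 1495, 5846 and 68.1 CPM. The groups lay far apart, with a difference of 8.47, and NS 9 stood well below the other samples of its set. Chil3 was at 2.11, 14.8, 1.02 and 0.450 CPM in NS 1-5 and 393, 222, 902 and 164 CPM in NS 6-9, a difference of 6.61. Within a sample, the counts of Chil4 were 6.64, 6.73 and 6.48 times those of Chil3 in NS 6, 7 and 8, but 0.414 times in NS 9. In AK this ratio was between 4.27 and 7.46, and Chil4 was at 1029, 2764 and 16087 CPM at the lowest, the median and the highest. NS 9 thus stood outside AK in the balance of the pair, and below it in both genes, with the lowest AK at 182 CPM for Chil3. In NS 1, 2, 4 and 5 Chil3 had 12, 51, 3 and 2 counts. Chil4 thus did not exceed Chil3 in NS 1, 2 and 4 either, on few counts.

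Interferon genes made up the largest group of listed genes higher in NS 6-9. Of 19 kept members of the interferon gamma list, 10 were higher, against 2.4% of all genes, and none was lower. All 19 differences were above 0, and their median was 1.48 against -0.01 for all genes. The score of a list is its mean log2(CPM + 1) over all members in the counts, kept or not, here 22. It was 3.98, 3.503, 3.94 and 3.41 in NS 1, 2, 4 and 5 and 4.96, 5.38, 4.95 and 4.60 in NS 6, 7, 8 and 9, without overlap, and 5.73 as the median of AK. With library size alone 8 members were higher, and none was lower under any scaling tried.

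Promoters of 2 of these genes are shown because both hold the letters to which interferon-activated factors bind. Capitals mark ISRE letters, GAAA and GAAA with 2 bases between them, and the GAS letters given above, on either strand, counted also where matches overlap, and the sequences are the last 110 bases before the RefSeq start (GRCm38.p6).
Gbp7: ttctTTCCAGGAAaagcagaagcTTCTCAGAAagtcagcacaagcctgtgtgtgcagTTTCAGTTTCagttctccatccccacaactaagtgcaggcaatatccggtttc
Igtp: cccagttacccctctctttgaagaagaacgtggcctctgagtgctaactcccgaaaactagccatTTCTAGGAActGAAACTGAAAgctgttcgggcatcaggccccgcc
The bases are chr3:142530226-142530335 (plus strand) for Gbp7, a guanylate-binding protein gene, and chr11:58199446-58199555 (plus strand) for Igtp, which encodes an immunity-related GTPase. In Gbp7, GAS letters lay 106 to 98 and 87 to 79 bases before the start and an ISRE on the opposite strand lay 53 to 44 before it. In Igtp, GAS letters lay 45 to 37 and the ISRE 34 to 25 bases before the start. Of the 15 members of both interferon lists that were higher, 10 had a window, and 6 of these (Gbp2, Gbp3, Gbp7, Igtp, Irgm1 and Rsad2) held ISRE letters within 250 bases, against 2.98% of all windows. That share was in part fixed by the lists, whose genes are known to answer interferon, and all windows include genes that were not kept. Among all genes higher in NS 6-9, 14 of 192 with a window held ISRE letters (7.29%), and among those lower 1 of 176 (0.568%), Cxcl14. The 14 include the same 6 genes and the near-identical Tgtp1 and Tgtp2, so they add little to the list members. For GAS letters the shares were 9.90% and 4.55%, against 7.02% of all windows. For TTC and GAA with 4 bases between them, the spacing preferred by STAT6, they were 6.25% and 5.11%, against 5.85%. These letters mark no proven site, and windows without them say nothing on the factors.

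Igtp was at 28.2, 22.9, 42.7 and 9.45 CPM in NS 1, 2, 4 and 5 and 89.02, 185, 99.2 and 45.5 CPM in NS 6, 7, 8 and 9. Gbp7 was at 39.6, 31.00, 36.98 and 24.1 CPM and 54.6, 65.2, 84.02 and 97.4 CPM, and NS 9 was its highest sample. Both genes were higher in each sample of NS 6-9 than in any of NS 1-5, by 1.98 for Igtp and 1.16 for Gbp7. Gbp2, another guanylate-binding protein gene, was at 43.1, 30.1, 39.4 and 23.8 CPM in NS 1-5 and 95.8, 222, 138 and 73.6 CPM in NS 6-9, with AK at 103, 265 and 700.1 CPM. Cxcl9, a chemokine that draws T cells, was at 4.05, 6.08, 11.9 and 8.77 CPM against 32.1, 108, 58.1 and 19.1 CPM. NS 7 was the highest and NS 9 the lowest of NS 6-9 in both. Psmb8, a subunit of the immunoproteasome that cuts peptides for antigen display, was at 145, 131, 138 and 89.8 CPM against 391, 523, 414 and 192 CPM. Irgm1, a regulator of the immunity-related GTPases, differed by 1.65, Gbp3 by 1.64, Gbp6 by 2.05, Gbp8 by 1.39 and Gbp9 by 1.48. The margin was thin for Gbp8, with 7.57 CPM in the highest of NS 1-5 and 7.89 CPM in the lowest of NS 6-9. Members that overlapped included Cxcl10, a sister chemokine of Cxcl9, at 3.34, 0.290, 1.70 and 4.95 CPM against 19.7, 56.8, 21.01 and 4.04 CPM, where NS 9 lay among NS 1-5. Irf1, a transcription factor of the response, did not overlap but differed by only 0.52.

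**Figure D2:**
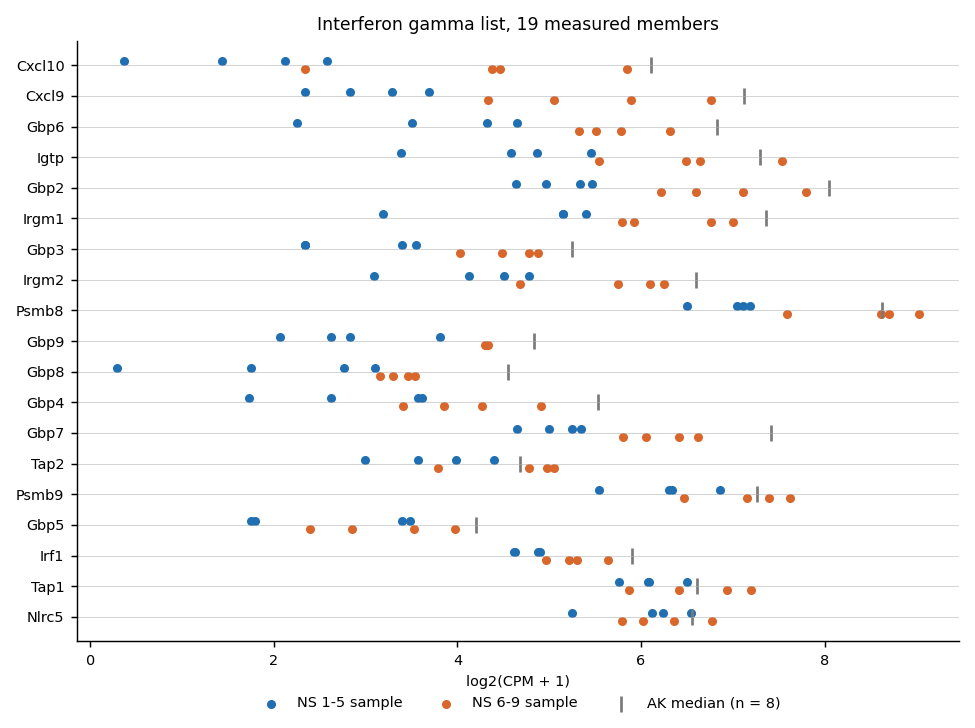
Level of the 19 kept members of the interferon gamma list in log2(CPM + 1), 1 point for each NS sample and a bar for the median of 8 AK, ordered by difference. All 19 have a higher mean in NS 6-9, and 10 were called.

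Of 22 kept members of the type I interferon list, 5 were higher, against 2.4% of all genes, among them Rtp4, Rsad2, Xaf1 and Oasl2. None was lower and 20 differences were above 0, with a median of 1.25 over the list. The list scores overlapped, at 3.10, 2.76, 4.01 and 2.67 in NS 1, 2, 4 and 5 and 4.23, 4.80, 4.64 and 3.48 in NS 6, 7, 8 and 9. Rtp4, an interferon-induced transmembrane protein, was at 25.2, 31.9, 48.2 and 18.4 CPM in NS 1-5 and 135, 182, 156 and 66.2 CPM in NS 6-9. It was above NS 1-5 in each sample of NS 6-9 and lowest there in NS 9. Rsad2, the antiviral enzyme viperin, was at 3.87, 6.08, 12.2 and 2.70 CPM against 25.9, 20.9, 17.4 and 57.2 CPM, and here NS 9 was the highest. Ifit1, an antiviral RNA-binding protein, overlapped, with 4.05, 3.19, 44.1 and 10.6 CPM against 42.8, 103, 81.3 and 16.4 CPM, since NS 4 was as high as NS 6. Without NS 9, 13 members were higher, and without NS 5, 2 were lower. Calls over all genes rose as well, from 252 to 608 higher without NS 9 and from 231 to 356 lower without NS 5.

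Outside the lists, Iigp1, an immunity-related GTPase, was at 38.9, 44.03, 39.4 and 19.6 CPM in NS 1, 2, 4 and 5 and 169.6, 213, 211 and 200.2 CPM in NS 6, 7, 8 and 9. NS 6-9 were close together and well clear of NS 1-5. Ifitm1, an interferon-induced membrane protein, was at 9.86, 13.6, 7.46 and 1.57 CPM against 19.7, 69.5, 31.1 and 92.1 CPM. Further genes of this kind, chosen after their values were seen, were Ifi47, with a difference of 2.18, the near-identical Tgtp1 and Tgtp2, whose counts are uncertain, with 2.17 and 2.02, and Ifitm3 with 1.63.

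Myeloid chemokines stood out by level, and were likewise chosen after their values were seen. Ccl8, which draws monocytes and other leukocytes, was at 995, 2534, 554 and 427 CPM in NS 1, 2, 4 and 5 and 6805, 5881, 5288 and 2814 CPM in NS 6, 7, 8 and 9, with AK at 2867, 5756 and 13574 CPM. NS 2, the highest of NS 1-5, came within a small margin of NS 9, the lowest of NS 6-9. Ccl7, a neighbouring chemokine gene, was at 35.4, 128, 24.4 and 21.8 CPM against 215, 199, 134 and 195 CPM. The macrophage and monocyte list did not follow, with 0 of 11 kept members called and a median difference of 0.15. No gene was called in the lists of MHC class II and Langerhans cell, T cell, natural killer and cytotoxic, and neutrophil genes. With at most 11 kept members in each of these lists and 4.59% of all genes called, that is no result about them. In the neutrophil list 7 of 15 members in the counts were kept, by a filter that low genes pass more easily where some samples are high. All 7 had differences above 0, with a median of 1.57, though the list scores overlapped. Over all 15 members the score difference was 0.64, and 0.03 with the median over members in place of the mean. The medians of kept members were -0.15 for MHC class II, 0.10 for T cell and 0.13 for natural killer genes.

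Genes of mast cells and basophils were higher in part. Mcpt8, a protease of basophils, had 4, 0, 0 and 2 counts in NS 1, 2, 4 and 5 and 4, 117, 52 and 27 counts in NS 6, 7, 8 and 9. These were 0.704, 0, 0 and 0.450 CPM and 2.25, 18.7, 15.8 and 5.74 CPM, so the low samples of both sets rested on few reads. Tpsab1, a mast cell tryptase, was at 0.880, 1.16, 2.71 and 0.450 CPM against 3.94, 11.3, 37.7 and 18.9 CPM. Fcer1a, a chain of the IgE receptor of both cell types, was at 10.9, 15.9, 3.05 and 3.60 CPM against 32.7, 22.8, 21.01 and 80.9 CPM, and Hdc, which makes histamine, was at 1.94, 2.61, 1.02 and 1.35 CPM against 5.07, 11.96, 15.2 and 14.7 CPM. These were 3 of the 9 kept members of the mast cell list, with Mcpt8 outside it, against 2.4% of all genes higher, and the median difference of the list was 1.13. That median was 0.64 without NS 4, 0.63 without NS 9 and 1.76 without NS 6. The proteases that connective tissue mast cells hold in bulk did not separate. Cma1, mast cell chymase, was at 182, 284, 28.8 and 19.3 CPM in NS 1-5 and 80.00, 171, 204 and 624.7 CPM in NS 6-9, and Cpa3, mast cell carboxypeptidase, at 168, 261, 27.1 and 20.2 CPM and 73.2, 98.6, 98.9 and 527 CPM. Both were lowest in NS 4 and 5 and highest in NS 9, with NS 1 and 2 among or above NS 6, 7 and 8.

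Among genes of the epidermis, Degs2, an enzyme that makes phytoceramides, was at 10.2, 15.9, 3.39 and 4.72 CPM in NS 1, 2, 4 and 5 and 40.001, 133, 107 and 30.9 CPM in NS 6, 7, 8 and 9. None of the 13 kept members of the list of ceramide barrier enzymes, which does not hold Degs2, was called, and their median difference was 0.09. Tmprss11b, a membrane serine protease of squamous epithelia, was at 0, 0.579, 1.70 and 0.675 CPM against 5.07, 16.9, 26.5 and 1.70 CPM. Its sets touch, since NS 4 and NS 9 differed by less than 1 count in level. Stfa2l1, a stefin-like protease inhibitor, had 0, 11, 1 and 45 counts in NS 1-5 and 33, 248, 64 and 50 counts in NS 6-9. The remaining genes of the 12 with the largest differences were Cdhr1, a cadherin known from photoreceptors, with 2.64, Slco1a5, an organic anion transporter, with 2.58, and Speer4d, of a testis gene family with many copies, with 2.55. Their counts in NS 1-5 were between 0 and 50.

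Metabolic and stress genes differed by less. The glycolysis and hypoxia list had 4 of 18 kept members higher, against 2.4% of all genes, and none lower, with a median difference of 0.59. Its scores were 5.82, 5.73, 5.78 and 5.66 in NS 1, 2, 4 and 5 and 6.36, 6.33, 6.70 and 5.99 in NS 6, 7, 8 and 9, without overlap. Pgk1, a kinase of glycolysis, was at 135, 134, 124 and 139 CPM in NS 1-5 and 217, 213, 335 and 213 CPM in NS 6-9. Pgam1, the mutase that acts after it, was at 79.9, 103, 98.04 and 94.9 CPM against 195, 180.2, 296 and 133 CPM. NS 1-5 lay close together in both and NS 8 was the highest of all. Bnip3, a hypoxia-induced mitophagy receptor, differed by 1.10 and Vegfa, the vascular growth factor, by 0.72. Gapdh, of the same pathway, differed by -0.09 with overlap. Without NS 9, 10 members were higher, while the calls over all genes rose from 252 to 608 higher. In the unfolded protein list 2 of 15 kept members were higher, against 2.4% of all genes, Manf, a secreted factor of endoplasmic reticulum stress, at 104, 152, 102 and 109.8 CPM against 208, 286, 220.4 and 208 CPM, and Creld2, a chaperone of the same compartment, at 58.4, 63.2, 55.97 and 57.8 CPM against 95.8, 99.7, 74.6 and 99.6 CPM. Hspa5, the chief chaperone there, also did not overlap but differed by 0.55. The scores of this list lay apart by a small margin, with a highest of 5.91 in NS 1-5 and a lowest of 5.92 in NS 6-9. With library size alone 1 member was higher, and without NS 2, 5 were. Of all genes, 140 and 433 were higher in these settings, in place of 252. Mt1 and Mt2, metallothioneins that bind zinc and copper, were chosen after their values were seen and differed by 1.56 and 1.47.

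**Figure D3:**
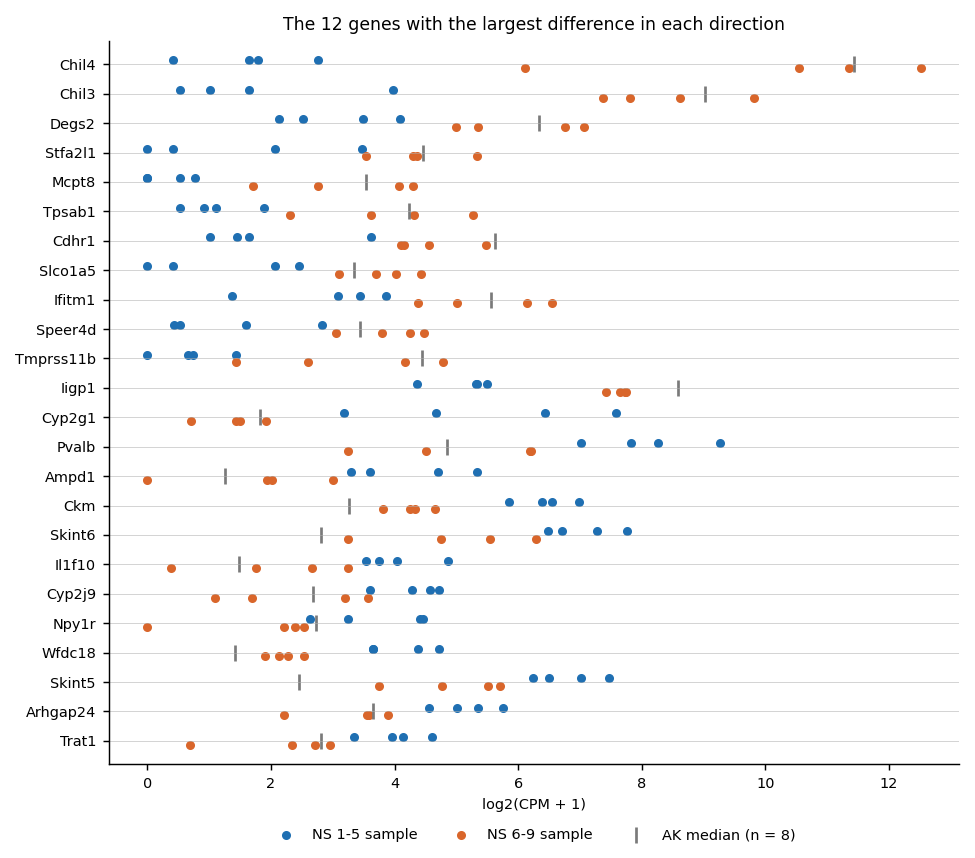
Level of the 12 genes with the largest difference in each direction, in log2(CPM + 1), with 1 point for each NS sample and a bar for the median of 8 AK. Chil4 and Chil3 have the widest gaps of the genes higher in NS 6-9, and Tmprss11b shows sets that touch.

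Of the genes lower in NS 6-9, Cyp2g1, a cytochrome P450 known from olfactory mucosa, had the largest difference. It was at 85.5, 189.7, 24.4 and 8.10 CPM in NS 1, 2, 4 and 5 and 1.69, 0.638, 1.83 and 2.77 CPM in NS 6, 7, 8 and 9, with AK at 0, 2.54 and 4.34 CPM. NS 1 and 2 were far above NS 4 and 5, and NS 6-9 rested on 3, 4, 6 and 13 counts. Cyp2j9, another member of that enzyme family, was at 22.9, 25.2, 11.2 and 18.4 CPM against 1.13, 2.23, 8.22 and 10.9 CPM. Npy1r, a receptor of neuropeptide Y, differed by -1.90, Wfdc18, a small secreted protein with a protease inhibitor fold, by -1.89, Arhgap24, which switches off Rac, by -1.86, and Il1f10, an interleukin of the epidermis, by -2.04.

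The Skint genes encode surface proteins of keratinocytes related to butyrophilins, and the founding member is needed for the dendritic epidermal T cells of mouse skin. Skint6 was at 88.4, 104, 217 and 154 CPM in NS 1, 2, 4 and 5 and 45.6, 25.998, 8.52 and 76.8 CPM in NS 6, 7, 8 and 9, and Skint5 at 74.8, 89.8, 177 and 129 CPM and 44.5, 26.2, 12.5 and 51.5 CPM. Both were highest in NS 4 and 5 and lowest in NS 8. The AK medians were 5.99 CPM for Skint6 and 4.49 CPM for Skint5. Of the 11 kept members of the family these were the 2 called, against 2.2% of all genes lower, 10 had differences below 0, and the median was -0.96. Skint1, the founding member, differed by 0.16. Trat1, an adaptor of the T cell receptor, was at 9.15, 14.5, 23.4 and 16.6 CPM against 6.76, 5.58, 0.609 and 4.04 CPM, and Cd247, a signalling chain of that receptor, chosen after its values were seen, at 8.63, 9.56, 12.6 and 9.90 CPM against 5.07, 5.58, 3.65 and 3.83 CPM. The T cell list had no called gene among 5 kept, against 4.59% of all genes called, and a median of 0.10. Cd3g, another receptor chain in it, differed by -1.02 with overlap, and Cd3d by 0.10.

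Skeletal muscle genes were lower in NS 6-9 in part. Pvalb, a calcium buffer of fast muscle, was at 618, 225, 307 and 129 CPM in NS 1, 2, 4 and 5 and 8.45, 21.9, 71.8 and 72.6 CPM in NS 6, 7, 8 and 9. Ckm, muscle creatine kinase, was at 126, 82.9, 92.6 and 56.5 CPM against 18.03, 13.1, 19.2 and 24.04 CPM. Ampd1, the AMP deaminase of muscle, differed by -2.50 and Tcap, a protein of the sarcomere, by -1.30. Of the 21 kept members of the muscle list, Pvalb, Ckm and Tcap were lower and none was higher, against 2.2% of all genes lower, 20 differences were below 0, and the median was -1.01. The median was -0.59 without NS 1. The abundant contractile genes overlapped, with Acta1, skeletal actin, at 3176, 1528, 1122 and 567.8 CPM in NS 1-5 and 185, 601, 1722 and 1085 CPM in NS 6-9, and Myh4, a fast myosin, at 1011, 124, 464 and 168 CPM and 9.01, 11.01, 18.6 and 486 CPM. In Acta1, NS 7, 8 and 9 lay in the range of NS 1-5, and in Myh4 NS 9 did. Myoz2, a muscle gene outside the list, chosen after its values were seen, went the other way with 1.83. The list score was 8.21, 6.69, 7.24 and 6.39 in NS 1-5, 4.84, 5.76, 6.10 and 6.68 in NS 6-9 and 0.97 to 7.26 in AK, a wide spread within each group. Leaving the muscle, adipocyte and erythrocyte lists out before scaling gave 270 higher and 230 lower genes. Without NS 2, NS 5 or NS 9, 7 members were lower, and without any other NS sample the number stayed at 3. Calls over all genes rose from 231 lower to 409, 356 and 509 without NS 2, NS 5 and NS 9. The cause of the lower muscle levels was not tested.

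Hair follicle genes were lower as a list. The scores of the follicle stem and matrix list were 4.35, 3.92, 4.13 and 4.06 in NS 1, 2, 4 and 5 and 3.32, 3.503, 3.48 and 3.82 in NS 6, 7, 8 and 9, without overlap, and 11 of its 12 kept members had differences below 0, with a median of -0.72. The 2 called, against 2.2% of all genes lower, were Hoxc13 and Lgr6. Hoxc13, a hair differentiation factor, was at 22.0025, 20.9, 18.7 and 11.02 CPM against 5.63, 5.26, 2.44 and 8.09 CPM. Lgr6, a stem cell receptor, was at 15.3, 7.53, 16.6 and 21.8 CPM against 7.32, 6.22, 3.65 and 3.40 CPM. Without NS 9, 6 members were lower, while the calls over all genes rose from 231 to 509 lower. The median score of AK was 3.30. Lce1m, a cornified envelope gene, was at 344, 512, 1414 and 921 CPM against 284, 211, 139 and 339 CPM. It was the only called member of the 18 kept of the late differentiation list, whose median was -0.10. This is near the 4.59% of all genes called in either direction and is no result about the list. In this list Flg, filaggrin, differed by 0.29 and Lor, loricrin, by -0.37, both with overlap.

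Other lists held 1 to 3 called genes. Nr1d1 and Nr1d2, repressors of the circadian clock, were lower, with differences of -1.04 and -0.80, and Nfil3, a factor that acts opposite to clock activators, was higher by 1.11. These were the called members among 16 kept, against 4.59% of all genes called in either direction, and the median of the list was -0.14. The time of day of collection is not given in the labels, and its part was not tested. Birc5, a survival and mitosis gene, was the one called member of 23 kept cell cycle genes, at 38.7, 43.2, 32.6 and 51.1 CPM against 58.03, 57.6, 179 and 69.6 CPM, with 21 differences above 0 and a median of 0.41. This is a share near that of all genes called in either direction, 4.59%, and is no result about the list. Pmaip1, a p53 target that promotes cell death, was at 41.2, 30.1, 13.6 and 40.9 CPM against 67.04, 59.01, 107 and 98.5 CPM. It was the one called member of 16 kept targets, whose median was 0.08, again near the share of 4.59% and no result about the list. Single members were called in the lists of cholesterol biosynthesis (Ebp, 0.73), immediate early genes (Klf6, 0.63), heat shock (Hspb1, -0.73), adipocyte (Cebpa, -0.67) and endothelial genes (Cdh5, -0.85). In each of these 5 lists the other members overlapped or stayed under 1.5-fold. The single gene thus stands for itself and, with 4.59% of all genes called, is no result about its list.

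**Figure D4:**
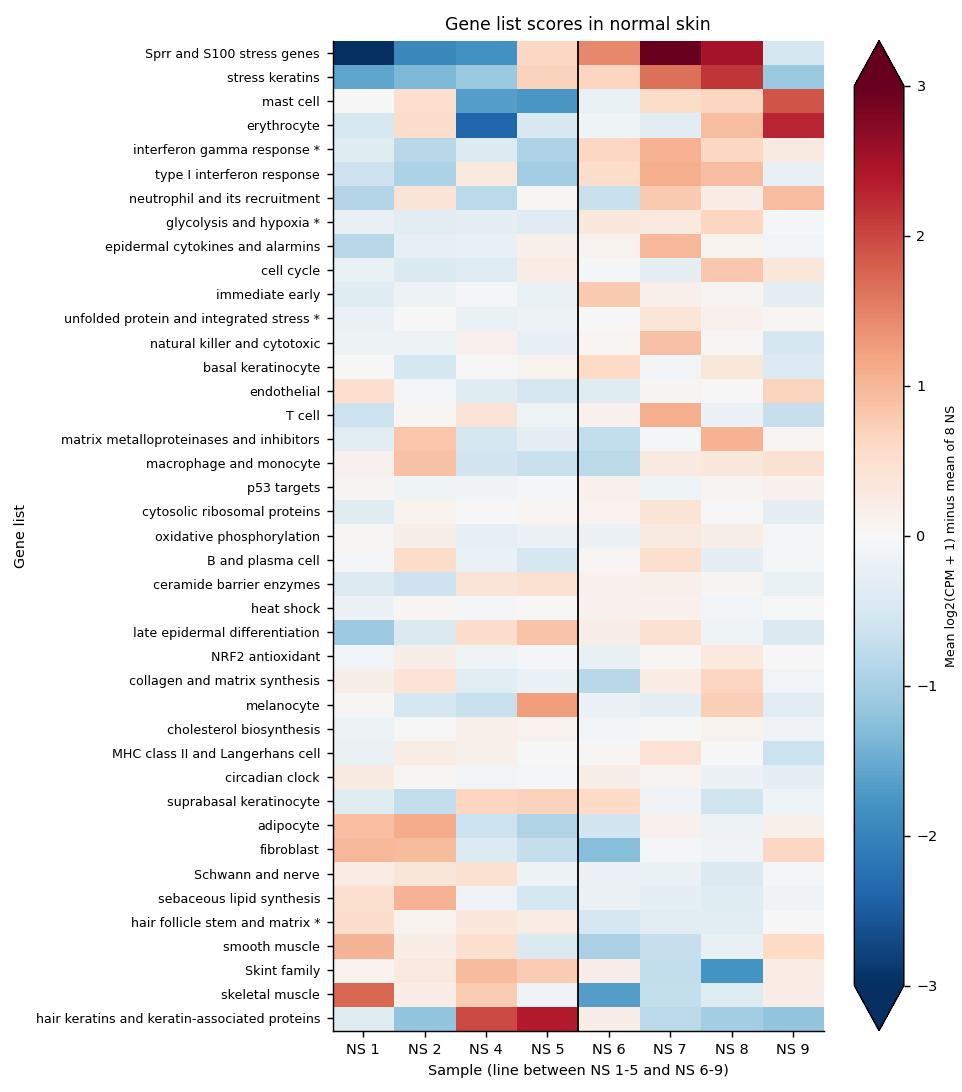
Scores of 41 gene lists in the 8 NS samples, each centred on its mean over them, ordered by the difference between the sets, with a star where the scores did not overlap. Of the lists, 4 have a star, and the list with the largest difference, Sprr and S100 stress genes, has none, with NS 5 above NS 9.

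Several groups varied widely between NS samples and overlapped between the sets. The list of Sprr and S100 stress genes had the largest difference, 3.26, with all 17 kept members above 0 and none called. Its scores were 2.77, 4.21, 4.34 and 6.77 in NS 1, 2, 4 and 5 and 7.60, 9.22, 8.65 and 5.66 in NS 6, 7, 8 and 9. NS 5 lay above NS 9, both lay between the remaining samples of the sets, and no other sample lay in the range of the other set. Sprr1b, a small proline-rich protein of the cornified envelope, was at 9.15, 37.9, 75.3 and 438 CPM in NS 1-5 and 426, 1233, 1929.5 and 237 CPM in NS 6-9, and Krt16, a stress keratin, at 159, 194, 396 and 1711 CPM and 2269, 4442, 5112 and 423 CPM. S100a8, a damage signal of keratinocytes and neutrophils, was at 27.3, 131, 46.5 and 317 CPM and 267, 3057, 345 and 824 CPM, with NS 7 above the highest AK, 1544 CPM. For the stress keratins the scores were 8.10, 8.33, 8.56 and 10.38 in NS 1-5 and 10.32, 11.33, 11.82 and 8.57 in NS 6-9. NS 9 thus stood with NS 1, 2 and 4 in the stress keratins, but above them in Sprr1b, S100a8 and the Sprr and S100 score. In the interferon gamma list it stood with NS 6, 7 and 8.

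Fibroblast, adipocyte and sebaceous genes were highest in NS 1 and 2. The fibroblast scores were 6.48, 6.43, 5.07 and 4.76 in NS 1, 2, 4 and 5 and 4.21, 5.43, 5.38 and 6.10 in NS 6, 7, 8 and 9. In the adipocyte list they were 5.77, 5.97, 4.20 and 3.95 in NS 1-5 and 4.27, 4.97, 4.71 and 5.004 in NS 6-9. NS 4, 5 and 6 were low in both lists, across the sets. The hair keratin list was high in NS 4 and NS 5, at 3.70 and 4.11, and between 0.54 and 1.93 in the other 6. Haemoglobin, the mark of blood in the tissue, was highest in NS 9, with Hbb-bs at 1216, 3375, 230.3 and 1230.2 CPM in NS 1-5 and 2323, 1782, 3390.2 and 17933 CPM in NS 6-9. Of 29 hair keratin genes in the counts, 16 were kept, by a mean CPM to which NS 4 and NS 5 could give most. All 16 had differences below 0, with a median of -1.71, and none was called. The filter fixes that direction in part. Of 7 erythrocyte genes, 5 were kept, and all 5 had differences above 0, with a median of 1.94 and none called. The scores of these markers of tissue makeup overlapped between the sets. Their part in each difference was not tested beyond the scaling without the muscle, adipocyte and erythrocyte lists.

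**Figure D5:**
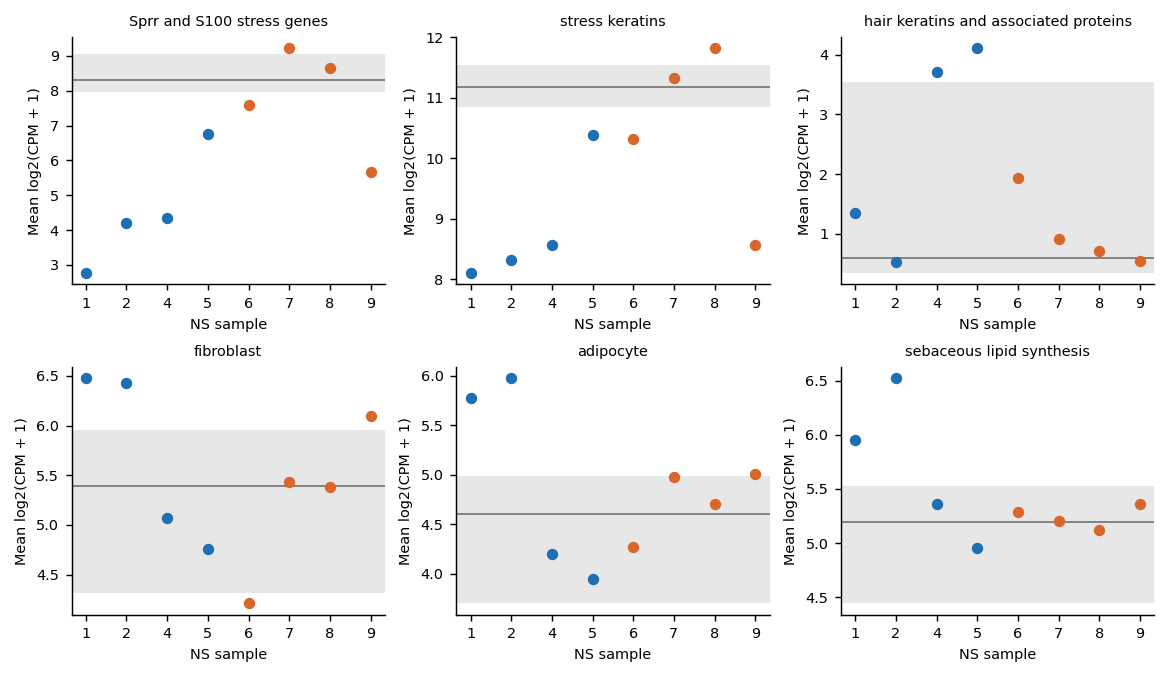
Scores of 6 gene lists in mean log2(CPM + 1), 1 point a sample (blue NS 1-5, orange NS 6-9), with the range of 8 AK as a grey band and their median as a line. In each list the sets overlap.

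For the 252 genes higher in NS 6-9, the median difference of a sample from the mean of NS 1-5 was 0.90, 1.00, 1.19 and 0.80 in NS 6, 7, 8 and 9, and 1.08 for the AK median. For the 231 genes lower, it was -0.90, -0.89, -1.03 and -0.77, and -0.91 for AK. NS 8 was the farthest of its set from NS 1-5 and NS 9 the nearest in both directions. The AK median of a gene lay within the range of NS 6-9 for 151 of the 252, beyond it for 54, between the sets for 27, within NS 1-5 for 18 and on the far side of NS 1-5 for 2. Of the 231, these were 144, 44, 25, 18 and 0. So 81.3% and 81.4% were at the level of NS 6-9 or beyond in AK, which the choice of the sets on a component holding AK fixes in part. Across the 8 AK samples, which share 4 mice and differ in depth, the median correlation between 2 genes was 0.04 among those higher, 0.10 among those lower and -0.03 across the directions, against 0.01 for all kept genes, which are weak values throughout. Under the alternatives, the value among the genes higher ranged from 0.016 without AK 13 to 0.16 with library size alone.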

How the data were processed

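RNA-seq of 20 skin samples was used. The authors deposited raw counts per gene symbol, 22090 genes, without normalization. The paper's methods give Trimmomatic 0.36, HISAT2, StringTie and GRCm38, a NextSeq instrument and irradiation on some days of each week. The labels and the submitters' processing notes name HISAT2 2.0.5, featureCounts 1.5.2, the builds mm9 and hg19, a HiSeq instrument and daily irradiation. Which of these made the counts is unclear, and strand is not given in the sources used here, so counts of overlapping genes and near-identical copies are uncertain.

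CPM used TMM factors over the 20 samples (edgeR 4.0.16, R 4.3.3), and log2(CPM + 1), principal components and list scores were computed in Python 3.11.15 with numpy 2.4.6 and pandas 2.3.3. Genes with a mean of at least 5 CPM over the 8 NS were kept. The calling rule was run on simulated data with 200 changed genes, in which genes varied independently and the sets were given beforehand. This checks the computation and says nothing on calls in sets chosen from the data. Named genes were the 12 per direction with the largest difference among kept genes whose sets did not overlap (gene models with Gm, Rik or -ps names were left unnamed), and list members that did not overlap or had the highest CPM of their list. The sets and the 41 gene lists were chosen with earlier results of these data known. Some results concern withheld items and are not reported here. Since expression chose the sets, no p-values were computed. Nothing in the labels says whether samples of a group came from separate extractions. Promoter sequences, matched by symbol, are from RefSeq on GRCm38.p6, and gene positions are from GENCODE on GRCm38. Alternatives were library size alone, DESeq2 1.42.0 size factors, muscle, adipocyte and erythrocyte genes left out, a pseudocount of 0.1, other filters and folds, list medians and each sample left out. Counts of list members under these scalings and without each NS were added after the data were examined.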

Additional observations from a re-analysis of the deposited data

Results flagged for a closer look

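In 2 of 67 values examined over the 8 NS, 1 sample lay far from the others by Dixon's criterion. Chance alone gives such a gap in about 1 in 20 groups. The natural killer and cytotoxic list scored highest in NS 7, at 3.02 against 2.26 for the next sample, a gap of 0.536 of the whole range. The immediate early list, genes that respond within minutes to stimulation or handling of tissue, scored highest in NS 6, at 5.49 against 4.86 for the next, a gap of 0.544 of the range. Both samples belong to NS 6-9, and neither list separated the sets. Their part in other differences was not tested.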

How the results depend on the processing

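Library size alone gave 140 genes higher and 393 lower, and list differences of -0.18 for cholesterol biosynthesis, -0.010 for p53 targets, 0.15 for the unfolded protein list and -0.049 for heat shock. A mean of at least 20 CPM gave 108 lower, and a minimum fold of 2 gave 112 higher and 91 lower, both stricter by construction. A pseudocount of 0.1 gave -0.80 for the hair follicle list and -0.99 for Schwann and nerve. Medians over members gave -0.91 for the hair follicle list, 0.24 for cholesterol biosynthesis, 0.11 for the circadian clock, 0.58 for the unfolded protein list, -0.093 for heat shock and 0.91 for glycolysis and hypoxia. Of the 41 lists, 20 took the other sign under at least 1 alternative, none of them a list whose scores did not overlap. Without each NS in turn the calls were 263 to 608 higher and 281 to 509 lower. NS 9 moved them most, with 608 and 509 without it, followed by NS 2 (433 and 409), NS 5 (414 and 356) and NS 6 (400 lower). The fewest were 263 higher and 281 lower without NS 8. A rule of no overlap is easier to meet with fewer samples, so a rise above 252 and 231 is in part by construction. Why the samples moved the calls unequally was not tested. The other 518 list values, the 28 values of correlation in AK and the 14 of the components moved by less than 1 SD within a set or, for the correlations, among gene pairs, as did 282 of the values of named genes, the 4 exceptions being Stfa2l1, Mcpt8, Slco1a5 and Tmprss11b with a pseudocount of 0.1. The gap on component 2 still ranged from 3.28 without NS 1 to 24.2 without NS 2, and the correlation in AK among higher genes from 0.016 without AK 13 to 0.16 with library size alone. None of the 12 named genes per direction changed sign. No paired analysis was possible because NS and AK samples share no replicate numbers and the labels tie no tissue to a mouse. Levels under 3 counts, up to 1.69 CPM in the smallest NS library, were taken as the floor, and they rest on 1 or 2 counts or none.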

Other observations

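Other genes that differed between the sets were looked at after their values were seen. Igfbp5, an insulin-like growth factor binding protein, was lower in NS 6-9, between 44.1 and 214.7 CPM in NS 1-5 and between 14.7 and 32.9 CPM in NS 6-9. Dapl1, an epidermal gene of early differentiation, differed by -1.59, and Nfib, a transcription factor of hair follicle stem cells, by -0.95. Ereg and Epgn, ligands of the epidermal growth factor receptor, were higher by 1.00 and 0.98, and Osmr, the receptor chain of oncostatin M, by 0.88. Lars2, the mitochondrial leucyl-tRNA synthetase (chr9:123366927-123462666, GRCm38), differed by -1.47, and the unnamed gene model Gm20594 by -0.90. All these are values of genes used in choosing the sets.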
